A study of Mus musculus with 16 samples.

Results

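A set of 10 genes that mark reactive astrocytes was followed across 16 brain RNA-seq libraries: Gfap, Vim, Serpina3n, Lcn2, Osmr, Cd44, Timp1, S1pr3, Cp and Steap4. They were the 10 of 21804 genes in the count table whose Ensembl identifier carried one of these symbols, and all 10 were found. The tissue came from C57BL/6 mice aged 4 months with 1 mutant copy (ret/wt, the controls) or 2 mutant copies (ret/ret) of the Pdgfb retention allele, so the controls carried the allele too. The allele lacks the stretch of PDGF-B that keeps this growth factor near the vessel wall, where it recruits pericytes. Each of the 8 animals, 4 of each genotype, gave 1 cortex and 1 thalamus library, which made 4 groups of 4 libraries. The study's question is how microglia bear on calcification of small brain vessels, which forms in the ret/ret thalamus and not in the other 3 groups. According to the extraction protocol, the ret/ret thalamus samples were calcified foci, found by their own fluorescence, and the ret/wt samples were the same region, so genotype and way of dissection cannot be told apart in the thalamus.

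Astrocytes answer injury, inflammation and vessel damage by becoming reactive: they thicken their intermediate filaments and make acute-phase, matrix and receptor proteins. Cytokines of the IL-6 family act through gp130 and STAT3, and inflammatory signals act through NF-kB, to turn on much of this program. Around vessels, astrocyte endfeet adjoin the wall that pericytes and endothelial cells form. Several of these genes are also made by other cells: Vim by endothelial cells and fibroblasts, Lcn2 by neutrophils, Cp by choroid plexus, Cd44 by leukocytes, and Timp1 by fibroblasts. The libraries are bulk tissue, in which more cells of a type and more RNA per cell cannot be told apart.

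Promoter stretches are shown for Gfap, the most abundant member, for Serpina3n, the member whose genotypes parted in thalamus, and for Steap4, the only member with a STAT match. They come from RefSeq on GRCm38.p6, are written 5′ to 3′ on the gene's strand, and are the 250 bases before the start site for Gfap (chr11:102897201-102897450, minus strand) and Serpina3n (chr12:104406458-104406707, plus strand). No GENCODE M21 exon overlaps either window. Capitals mark an NF-kB motif (GGG, any 5 bases, then CC), read on both strands, whose matches form 2 stretches in Serpina3n and are missing from the Gfap window.
Gfap: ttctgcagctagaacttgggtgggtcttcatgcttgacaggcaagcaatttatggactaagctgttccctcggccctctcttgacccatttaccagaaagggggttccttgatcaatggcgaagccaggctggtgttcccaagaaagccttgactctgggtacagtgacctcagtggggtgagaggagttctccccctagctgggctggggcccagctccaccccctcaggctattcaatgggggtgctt
Serpina3n: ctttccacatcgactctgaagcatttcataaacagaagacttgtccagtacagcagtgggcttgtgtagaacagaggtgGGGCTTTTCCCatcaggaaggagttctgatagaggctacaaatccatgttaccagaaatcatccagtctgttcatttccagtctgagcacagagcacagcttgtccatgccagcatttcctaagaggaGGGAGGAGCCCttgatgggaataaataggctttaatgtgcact
For Steap4 a shorter stretch is given (chr5:7960330-7960390, plus strand), whose first bases lie in an exon of the neighbouring gene Gm30835. Its capitals mark the letters TTCNNNGAA of a STAT motif, which begins 116 bases before the start site.
Steap4: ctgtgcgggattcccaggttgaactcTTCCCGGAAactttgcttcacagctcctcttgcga
All 10 members had a RefSeq promoter, and Cp had 2, which made 11 windows of 250 bases. The NF-kB motif occurred in 8 of the 11 windows (not in Gfap, S1pr3 or the first window of Cp), beside 45.8% of all 32851 promoters of the same length. In 5 of the 11 windows bases lay in annotated exons: all 250 bases for Vim and Osmr, whose windows lie within their own exons, and 197, 195 and 98 bases for Lcn2, the second window of Cp, and Steap4. The STAT letters occurred in Steap4 alone, beside 7.02% of all promoters. The AP-1 letters TGANTCA, read on both strands, occurred in the first window of Cp alone, beside 6.75% of all promoters. A match of letters is a description of the sequence and no measure of binding.

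The libraries held 13415391 to 29135064 counts each. The summed cortex neuron markers ran from 844 to 2897 CPM (counts scaled to a common library total) in cortex and from 199 to 479 in thalamus. The summed thalamus neuron markers ran from 556 to 3425 CPM in thalamus and from 156 to 751 CPM in cortex, so the regions overlapped on that list. Some libraries stood apart. Ret/wt thalamus replicate 3 and ret/ret thalamus replicate 2 held the thalamus neuron markers at 3127 and 3425 CPM, against 556 to 1119 CPM in the other 6 thalamus libraries, and ret/ret cortex replicate 2 held them at 751 CPM, above 3 of the 4 ret/ret thalamus libraries. The Y-linked gene Ddx3y was at 55.6 to 67.9 CPM in both libraries of ret/wt replicate 3 and of ret/ret replicate 2, while the other 12 libraries held at most 0.217 CPM. The summed cerebellum markers reached 1890 CPM in ret/wt cortex replicate 3 and 4456 CPM in ret/ret cortex replicate 2. The other 6 cortex libraries held 18.2 to 57.4 CPM. The summed choroid plexus markers were 1698 CPM in ret/wt cortex replicate 4. In ret/ret thalamus replicate 1 the summed red blood cell, ependymal, endothelial, fibroblast and microglia markers were each the highest of the 8 thalamus libraries. The summed general astrocyte markers were also highest there, at 9662 CPM, and the summed neuron markers lowest, at 3206 CPM. Their part in the member values was not tested.

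On a scale of CPM per kilobase of exon, averaged over the 16 libraries, Gfap led the list at 68.7. Serpina3n followed at 14.9, Vim at 11.2, Cp at 2.86 and S1pr3 at 1.55. Below 1 CPM per kilobase were Timp1 at 0.880, Cd44 at 0.690, Lcn2 at 0.551, Osmr at 0.340 and Steap4 at 0.0487. Gfap stood above Serpina3n in all 16 libraries and Vim above Cp in all 16, while Serpina3n stood above Vim in 10. The library ranges of neighbours in this order overlapped for every pair but the last, Osmr and Steap4. In every member, groups next to each other in the order of their mean CPM also overlapped.

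**Figure D1:**
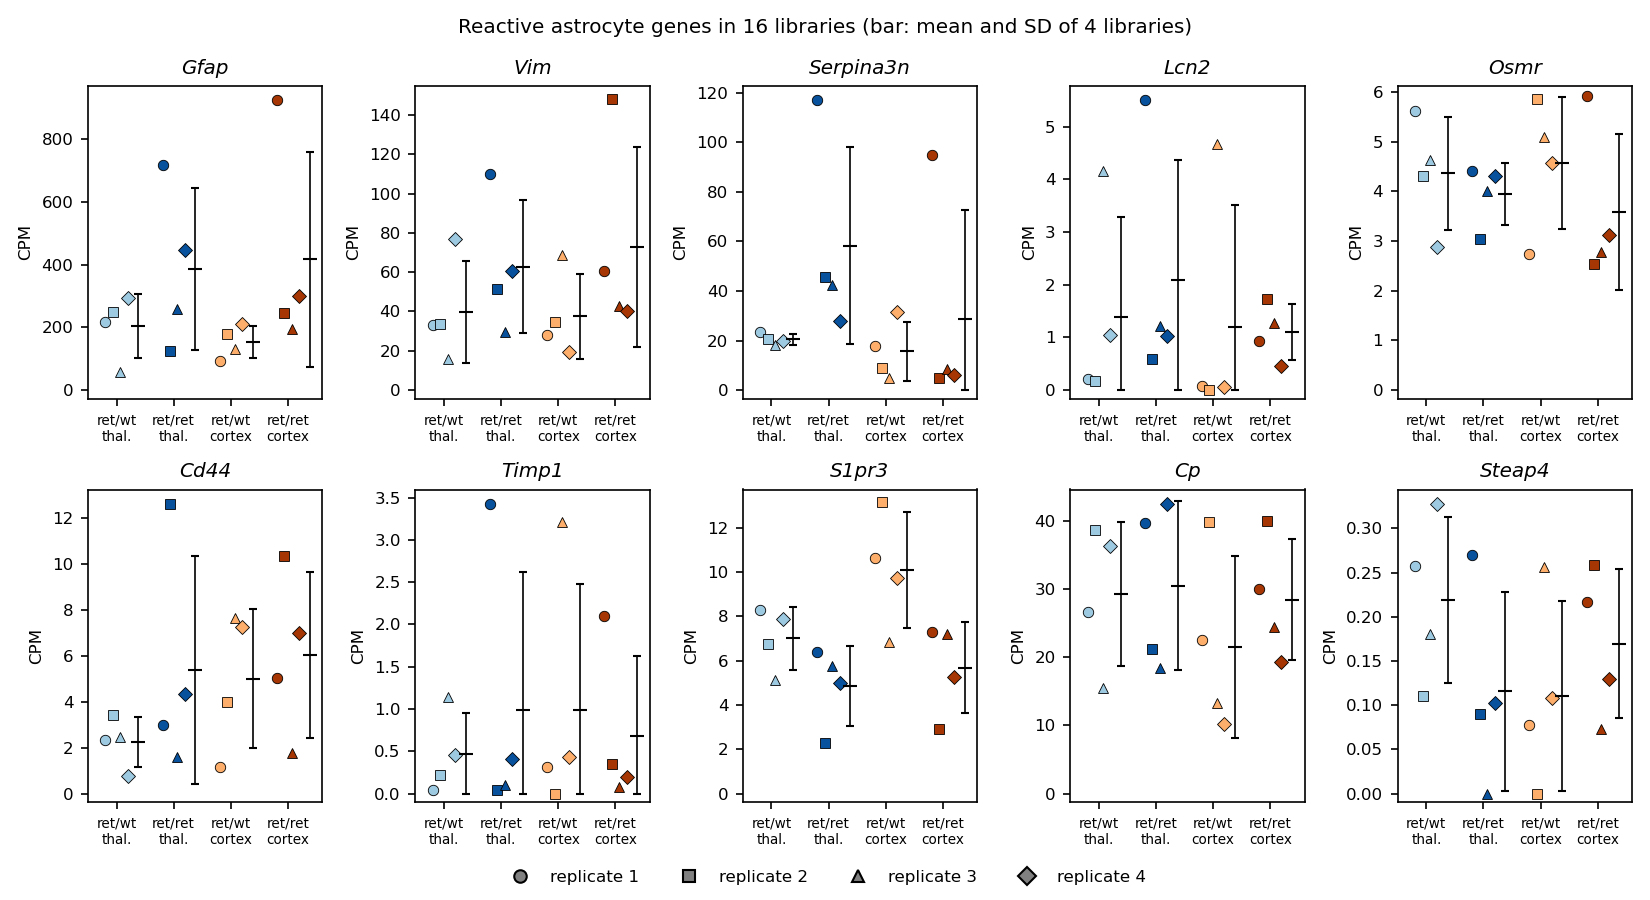
CPM of the 10 members in each library (linear axes starting at 0, a separate scale for each gene), with 4 libraries per group, marker shapes for the replicate number, and a bar for the mean and SD that is cut at 0. Ret/ret replicate 1 is high in Gfap and Serpina3n in both regions, and Serpina3n in thalamus is the only panel where ret/ret and ret/wt of a region do not overlap.

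Intermediate filament genes came first. Gfap (ENSMUSG00000020932, chr11:102887336-102900912) encodes the glial fibrillary acidic protein, the filament by which reactive astrocytes are usually stained. In thalamus the ret/wt replicates 1 to 4 held 216, 248, 58.3 and 294 CPM and the ret/ret replicates held 718, 123, 258 and 447 CPM. The ret/ret thalamus replicates 1 and 4 lay above every ret/wt library, and the groups overlapped. The log2 fold change of ret/ret against ret/wt thalamus was 0.94 ± 0.57 (SE, n = 4 against 4), and edgeR's quasi-likelihood test gave an adjusted p of 1. In cortex the ret/wt replicates held 92.4, 178, 130 and 210 CPM and the ret/ret replicates held 926, 244, 196 and 299 CPM. Ret/ret cortex replicate 1 was 3.09 times the next library, and ret/ret replicate 3 lay below ret/wt replicate 4, which was the only pair out of order. The cortex log2 fold change of Gfap was 1.46 ± 0.49 (SE, n = 4 against 4; edgeR adjusted p = 0.999). Without ret/ret cortex replicate 1 it was 0.69 ± 0.29 (edgeR adjusted p = 0.92), and in thalamus without ret/ret thalamus replicate 1 it was 0.44 ± 0.55.

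Vim (ENSMUSG00000026728, chr2:13573927-13582826) encodes vimentin, a filament that immature and reactive astrocytes share with endothelial cells and fibroblasts. Its thalamus values were 33.0, 33.7, 15.97 and 76.7 CPM in ret/wt replicates 1 to 4 and 110, 51.3, 29.4 and 60.7 CPM in ret/ret replicates. In cortex they were 27.8, 34.5, 68.5 and 19.4 CPM in ret/wt and 60.6, 148, 43.0 and 40.4 CPM in ret/ret. The genotypes overlapped in both regions, and a different library led in each region, ret/ret replicate 1 in thalamus and ret/ret replicate 2 in cortex. The log2 fold change of Vim was 0.67 ± 0.50 in thalamus and 0.97 ± 0.50 in cortex (SE, n = 4 against 4), with edgeR adjusted p-values of 1 and 0.999. Ret/ret cortex replicate 2, the highest library for Vim, also held the summed cerebellum markers at 4456 CPM. Without that library alone the cortex log2 fold change of Vim was 0.35 ± 0.39 (SE; edgeR adjusted p = 1), and without ret/wt cortex replicate 3, the highest ret/wt library, it was 1.43 ± 0.48 (adjusted p = 0.865). These libraries belong to the 2 animals that carried Ddx3y reads, and without both animals it was 0.83 ± 0.26 (adjusted p = 1). In thalamus Vim ranged from 0.25 to 1.23 when 1 library was left out.

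Of the secreted members, Serpina3n showed the clearest separation. Serpina3n (ENSMUSG00000021091, chr12:104406729-104414329) encodes a secreted serine protease inhibitor of the acute-phase response and is widely used as a marker of reactive astrocytes. In thalamus the ret/wt replicates 1 to 4 held 23.3, 20.6, 18.2 and 19.9 CPM, a narrow range, and the ret/ret replicates held 117, 45.8, 42.3 and 28.0 CPM. Every ret/ret thalamus library lay above every ret/wt thalamus library, with a log2 fold change of 1.53 ± 0.40 (SE, n = 4 against 4; edgeR adjusted p = 0.917), which did not pass the threshold of 0.05 over all genes. Without ret/ret thalamus replicate 1, the highest library, it was 0.93 ± 0.22 (SE; edgeR adjusted p = 1), a smaller difference with a smaller error. Over 20 alternative fits (edgeR, DESeq2 or limma-voom) the smallest adjusted p of Serpina3n in thalamus was 0.0554. In cortex the ret/wt replicates held 17.8, 8.76, 4.75 and 31.5 CPM and the ret/ret replicates held 94.6, 5.05, 8.48 and 6.03 CPM. Here the 3 ret/ret libraries other than replicate 1 were all below ret/wt replicates 1 and 2. The cortex log2 fold change of Serpina3n was 0.87 ± 0.97 (edgeR adjusted p = 0.999), and without ret/ret cortex replicate 1 its sign turned, to -1.27 ± 0.59 (edgeR adjusted p = 0.92). Serpina3n lies in a cluster of near-identical genes whose reads can be split between copies. The only other cluster gene with enough counts to test, Serpina3g, had a log2 fold change of 0.07 ± 0.40 in thalamus and 0.45 ± 0.94 in cortex.

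Lcn2 (ENSMUSG00000026822, chr2:32384633-32388252) encodes lipocalin-2, which binds iron-carrying siderophores and is secreted by reactive astrocytes and neutrophils. It was near the floor of 3 counts in ret/wt cortex, where 3 of 4 libraries held 3 counts or fewer. In thalamus it was at 0.215, 0.166, 4.16 and 1.05 CPM in ret/wt replicates 1 to 4 and at 5.50, 0.583, 1.22 and 1.02 CPM in ret/ret. In cortex it was at 0.0782, 0, 4.66 and 0.0538 CPM in ret/wt and at 0.940, 1.73, 1.28 and 0.454 CPM in ret/ret. Ret/wt replicate 3 was high in both regions, and the summed neutrophil markers were highest in the same 2 libraries, at 5.48 CPM in thalamus and 5.43 CPM in cortex. The log2 fold change of Lcn2 was 0.61 ± 1.02 in thalamus and -0.16 ± 1.25 in cortex (SE, n = 4 against 4; edgeR adjusted p = 1 and 0.999). Without ret/wt cortex replicate 3 the cortex value was 4.45 ± 0.86 (edgeR adjusted p = 0.691), a fitted value that rests on ret/wt libraries with 0 to 3 counts and is no bound. In thalamus, without ret/ret thalamus replicate 1, it was -0.55 ± 1.02. The part of neutrophil RNA in the Lcn2 values was not tested.

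Timp1 (ENSMUSG00000001131, chrX:20870166-20874735) encodes a secreted inhibitor of matrix metalloproteinases. Counts ran from 0 to 76, too few for a test within either region. Its highest libraries were ret/ret thalamus replicate 1 at 3.42 CPM, ret/wt cortex replicate 3 at 3.21 CPM and ret/ret cortex replicate 1 at 2.10 CPM. The other 13 libraries held 0 to 1.15 CPM, so high and low libraries occurred in both genotypes.

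Cp (ENSMUSG00000003617, chr3:19957054-20009145) encodes ceruloplasmin, a copper-carrying ferroxidase that astrocytes hold on their surface. In thalamus it was at 26.6, 38.7, 15.5 and 36.3 CPM in ret/wt replicates 1 to 4 and at 39.7, 21.2, 18.4 and 42.5 CPM in ret/ret. In cortex it was at 22.5, 39.8, 13.3 and 10.2 CPM in ret/wt and at 30.0, 40.0, 24.5 and 19.3 CPM in ret/ret. The genotypes overlapped in both regions, with log2 fold changes of 0.07 ± 0.36 in thalamus and 0.42 ± 0.41 in cortex (SE, n = 4 against 4; edgeR adjusted p = 1 and 0.999).

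The 3 receptors differed among themselves in direction. Osmr (ENSMUSG00000022146, chr15:6813577-6874969) encodes the oncostatin M receptor subunit, which signals with gp130 to STAT3. It held 2.88 to 5.62 CPM in ret/wt thalamus and 3.05 to 4.41 CPM in ret/ret thalamus, and 2.74 to 5.87 CPM in ret/wt cortex and 2.55 to 5.93 CPM in ret/ret cortex. Its log2 fold change was -0.12 ± 0.30 in thalamus and -0.35 ± 0.38 in cortex (SE, n = 4 against 4; edgeR adjusted p = 1 and 0.999). Ret/ret cortex replicate 1, at 5.93 CPM, stood above the other 3 ret/ret cortex libraries, which held 2.55 to 3.11 CPM.

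Cd44 (ENSMUSG00000005087, chr2:102811141-102901665) encodes the cell-surface receptor for hyaluronan. In thalamus it was at 2.32, 3.43, 2.47 and 0.786 CPM in ret/wt replicates 1 to 4 and at 2.97, 12.7, 1.61 and 4.35 CPM in ret/ret. In cortex it was at 1.17, 3.98, 7.66 and 7.26 CPM in ret/wt and at 5.06, 10.4, 1.75 and 7.01 CPM in ret/ret. Ret/ret replicate 2 led both regions, and the genotypes overlapped in both. For Cd44 the log2 fold change was 1.29 ± 0.64 in thalamus and 0.27 ± 0.62 in cortex (SE, n = 4 against 4; edgeR adjusted p = 1 and 0.999). Without the 2 animals that carried Ddx3y reads, of which ret/ret replicate 2 is one, the thalamus value of Cd44 was 0.47 ± 0.60.

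S1pr3 (ENSMUSG00000067586, chr13:51408639-51422797) encodes a receptor for sphingosine-1-phosphate, and its values lay on the other side. In thalamus it was at 8.28, 6.74, 5.12 and 7.86 CPM in ret/wt replicates 1 to 4 and at 6.40, 2.29, 5.77 and 4.97 CPM in ret/ret. In cortex it was at 10.6, 13.2, 6.85 and 9.74 CPM in ret/wt and at 7.30, 2.93, 7.20 and 5.26 CPM in ret/ret. In both regions the ret/wt mean was the higher, and ret/wt replicate 3 fell inside the ret/ret range. For S1pr3 the log2 fold change was -0.51 ± 0.35 in thalamus and -0.83 ± 0.33 in cortex (SE, n = 4 against 4; edgeR adjusted p = 1 and 0.999). Without the 2 animals that carried Ddx3y reads, the cortex value was -0.76 ± 0.26.

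Steap4 (ENSMUSG00000012428, chr5:7960457-7982213) encodes a metalloreductase that reduces iron and copper. It held 0 to 6 counts per library, or 0 to 0.328 CPM, and entered no test. In ret/ret thalamus 3 of 4 libraries were at or under the floor of 3 counts, and in ret/wt thalamus 2 of 4, so that no difference was detectable at this depth.

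**Figure D2:**
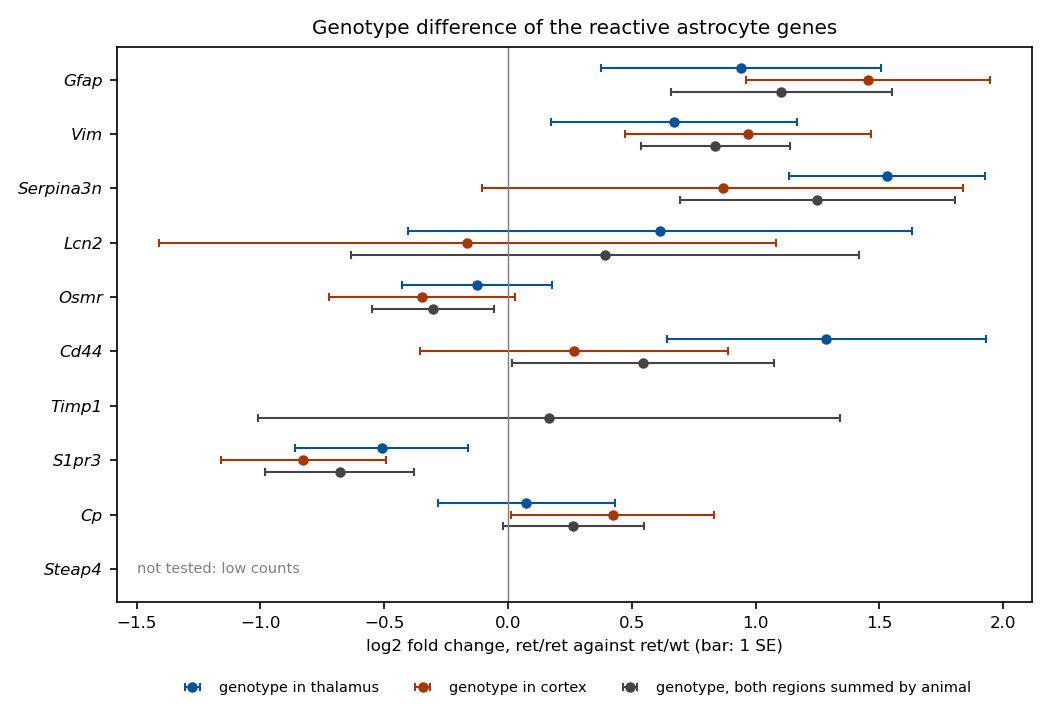
Log2 fold change of ret/ret against ret/wt (x axis, points with a bar of 1 SE, 4 against 4) for each member in thalamus, in cortex, and with both regions of an animal summed. Gfap, Vim and Serpina3n lie above 0 and S1pr3 below 0 in all 3 comparisons, Steap4 was not tested, and Timp1 was tested on summed counts only.

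Counted over the list, 8 of the 10 members passed the filter on low counts in each region, Timp1 and Steap4 being left out. In thalamus 0 of 8 members were called at an adjusted p under 0.05, with 0% of all 14767 genes called. At an unadjusted p under 0.05 there was 1 member, Serpina3n, with 3.93% of all genes. Serpina3n stayed under 0.05 in each fit that left out 1 library, and not in the fit over all 16 libraries. Gfap joined it without ret/ret thalamus replicate 2, and Vim without ret/wt thalamus replicate 4. Cd44 joined it without ret/ret thalamus replicate 3 and with DESeq2. Without the 2 animals that carried Ddx3y reads there were 3 such members, Gfap, Serpina3n and Lcn2. DESeq2 called 0 members by its adjusted p. Groups did not overlap, with ret/ret higher, in 1 member, beside 1.86% of all genes, and with ret/ret lower in 0 members, beside 0.941% of all genes. In cortex 0 of 8 members were called, with 0.021% of all 14288 genes called. There Gfap (higher) and S1pr3 (lower) had an unadjusted p under 0.05, beside 3.77% of all genes. Gfap stayed so whichever library was left out, while S1pr3 did not when any of 5 of the 8 libraries was left out (ret/wt replicates 1, 2 and 4, ret/ret replicates 2 and 4). Without ret/wt cortex replicate 3 there were 4 such members, with Vim and Lcn2 added, and in the fit with a replicate block, which pairs different animals, there was 1, Cp. DESeq2 called 0 members by its adjusted p, and 0 members were without overlap, beside 1.76% of all genes higher and 0.637% lower. The log2 fold change was above 0 in 6 of 8 members in thalamus and 5 of 8 in cortex, beside 47.1% and 51.9% of all genes. Its median over the members tested was 0.64 in thalamus and 0.34 in cortex, beside -0.02 and 0.01 over all genes tested.

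The animal is the unit of the genotype, so the 2 libraries of each animal were also summed. Gfap was then at 171, 215, 101 and 241 CPM in ret/wt animals 1 to 4 and at 803, 190, 227 and 388 CPM in ret/ret animals. Vim was at 30.9, 33.6, 46.9 and 43.9 CPM in ret/wt and at 91.5, 103, 37.9 and 52.5 CPM in ret/ret, with ret/ret animal 3 inside the ret/wt range. Serpina3n was at 21.2, 15.3, 10.4 and 25.5 CPM in ret/wt and at 109, 25.6, 23.4 and 18.6 CPM in ret/ret. S1pr3 was at 9.05, 9.42, 6.15 and 8.64 CPM in ret/wt and at 6.79, 2.68, 6.71 and 5.18 CPM in ret/ret. All 4 of these genes overlapped between genotypes. The log2 fold changes were 1.10 ± 0.45 for Gfap, 0.84 ± 0.30 for Vim, 1.25 ± 0.56 for Serpina3n and -0.68 ± 0.30 for S1pr3 (SE, n = 4 against 4; edgeR adjusted p = 0.923, 0.844, 0.967 and 0.967). These 4 of 9 members tested had an unadjusted p under 0.05, beside 5.13% of all 15505 genes, and 0 of 9 were called, with 0.0129% of all genes called. DESeq2 called 0 members, and 0 members were without overlap, beside 2.77% of all genes higher and 0.606% lower. The log2 fold change was above 0 in 7 of 9 members, beside 46.6% of all genes, with a median of 0.39 beside -0.02 over all genes tested.

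The count of 4 at an unadjusted p under 0.05 depended on single animals, on the tool and scaling, and on how the regions were combined. It was 0 without ret/wt animal 1 and 1 without ret/ret animal 1, where S1pr3 remained, and 1, Gfap, with the replicate block. S1pr3 was not under 0.05 with other size factors, with library size alone, with upper-quartile scaling, with no filter or with the stricter filter. Summed counts weigh the deeper library of an animal more. With the mean of the regions over all 16 libraries Gfap and S1pr3 were under 0.05, and with limma-voom Vim and S1pr3. The fold changes by animal depended on ret/ret animal 1. Without it the log2 fold change was 0.53 ± 0.33 for Gfap and 0.28 ± 0.29 for Serpina3n, but 0.70 ± 0.32 for Vim and -0.81 ± 0.32 for S1pr3 (SE, n = 3 against 4). Lcn2 was at 0.39 ± 1.03 with all animals, and without ret/wt animal 3 at 2.78 ± 0.78 (edgeR adjusted p = 0.783). Timp1, tested in this comparison only among those of genotype, was at 0.17 ± 1.17, at 1.91 ± 1.21 without ret/wt animal 3 and at -1.96 ± 1.09 without ret/ret animal 1. Osmr was at -0.30 ± 0.25, Cd44 at 0.55 ± 0.53 and Cp at 0.26 ± 0.28.

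The 2 regions were compared by which animal held the highest value of each member. How far member levels belong to the animal was not tested. Gfap and Serpina3n were highest in ret/ret replicate 1 in both regions, and Cd44 in ret/ret replicate 2 in both regions; for the other 7 members different animals led the 2 regions. In thalamus ret/ret replicate 1 was the highest library for 5 members, Gfap, Vim, Serpina3n, Lcn2 and Timp1. In cortex it was the highest for 3, Gfap, Serpina3n and Osmr, and ret/ret replicate 2 for 4, Vim, Cd44, Cp and Steap4.

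**Figure D3:**
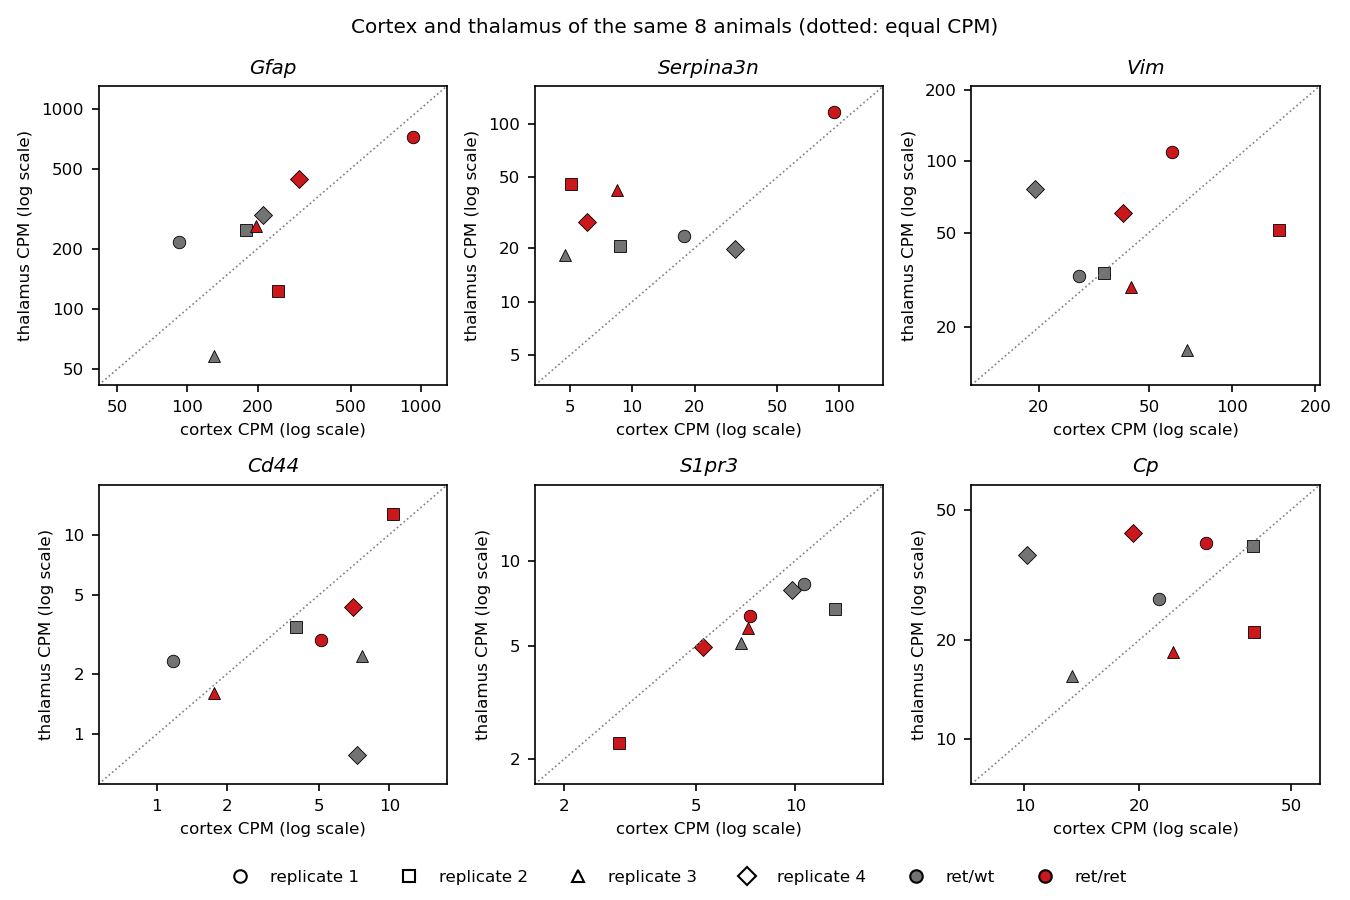
Cortex CPM (x axis) against thalamus CPM (y axis) of the same 8 animals, both on log scales, for 6 members, with shapes for the replicate and colours for the genotype. Serpina3n lies above the dotted line of equal CPM in all 4 ret/ret and 3 of 4 ret/wt animals, and S1pr3 below it in all 8.

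Between regions within a genotype, 0 members were called, which is near the share of all genes for so few members. In ret/ret 0 of 8 members were called, beside 9.5% of all 14715 genes (4.1% higher and 5.4% lower in thalamus). In ret/wt it was 0 of 7, beside 12.6% of all 14442 genes (5.44% higher and 7.12% lower in thalamus). In these fits without a block no member had an unadjusted p under 0.05 in edgeR in either genotype, beside 26.7% and 27% of all genes; with the animal as a block there was 1 in ret/ret, Serpina3n, and 0 in ret/wt. Also 0 members were without overlap in either direction. Of all genes, 8.87% in ret/ret and 9.58% in ret/wt were higher in thalamus without overlap, and 8.7% and 10.4% lower. DESeq2 called 0 members in both. Serpina3n was higher in thalamus than in cortex in 4 of 4 ret/ret animals, by 0.30 to 3.17 on the log2 scale, and in 3 of 4 ret/wt animals. Its log2 fold change of ret/ret thalamus against ret/ret cortex was 1.02 ± 0.94 (edgeR adjusted p = 0.522), and 1.99 ± 0.48 with the animal as a block (adjusted p = 0.0583). Without ret/ret cortex replicate 1 it was 3.16 ± 0.52 (edgeR adjusted p = 0.0133), which passed the threshold. S1pr3 was lower in thalamus in all 8 animals, by a mean of -0.51 ± 0.30 on the log2 scale in ret/wt and -0.23 ± 0.12 in ret/ret (SD, n = 4 each). In the fit without a block S1pr3 was at -0.53 ± 0.28 in ret/wt (edgeR adjusted p = 0.255) and at -0.24 ± 0.40 in ret/ret (adjusted p = 0.743). This fit, also used for Cd44 and Gfap below, leaves out the pairing by animal, so its SE is not that of the paired difference. Cd44 was lower in ret/wt thalamus than in ret/wt cortex by -1.18 ± 0.59 (edgeR adjusted p = 0.228), and in ret/ret by -0.18 ± 0.68 (adjusted p = 0.897). Gfap was at -0.13 ± 0.60 in ret/ret and 0.41 ± 0.43 in ret/wt, with thalamus the higher in 2 of 4 and 3 of 4 animals.

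Whether the genotype difference depends on the region was tested as an interaction over all 16 libraries. This fit had no term for the animal, so the 2 libraries of an animal entered as separate. None of the 9 members tested was called, with 0% of all 15286 genes called. None had an unadjusted p under 0.05, beside 1.6% of all genes. DESeq2 called 0 members. With the animal as a block, which pairs the regions, 0 members were called and 0 had an unadjusted p under 0.05 in edgeR. Thalamus difference minus cortex difference was -0.53 ± 0.81 for Gfap, 0.64 ± 1.13 for Serpina3n, 0.9998 ± 0.961 for Cd44 and 0.30 ± 0.48 for S1pr3 (log2, SE; edgeR adjusted p = 1). For Serpina3n this value rested on single libraries: it was 2.76 ± 0.74 without ret/ret cortex replicate 1 (edgeR adjusted p = 1, unadjusted p under 0.05), 0.060 ± 1.15 without ret/ret thalamus replicate 1, and 0.045 ± 1.17 without ret/wt cortex replicate 4. No difference of the genotype effect between the regions passed the threshold over all genes, and the separation of Serpina3n in thalamus is not shown to be particular to thalamus.

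General astrocyte markers were summed as a scale for the members, which is no direct measure of astrocyte RNA. The sum of 16 markers such as Aqp4, Slc1a3 and Aldh1l1 in thalamus was 6561 to 8254 CPM for ret/wt and 7023 to 9662 CPM for ret/ret. In cortex it was 7287 to 8671 CPM for ret/wt and 8324 to 11475 CPM for ret/ret. Of these 16, 13 had a log2 fold change above 0 in thalamus and 14 in cortex, beside 47.1% and 51.9% of all genes. Their medians were 0.35 and 0.46, and 0 were called. The most abundant of them, Slc1a2, was at 2144 CPM in ret/wt thalamus and 4146 CPM in ret/wt cortex. Its log2 fold change was -0.24 ± 0.27 in thalamus and -0.08 ± 0.25 in cortex (SE, n = 4 against 4). The sum therefore weighs the 16 markers unevenly. Relative to that sum, Serpina3n was at 0.687% ± 0.365 in ret/ret thalamus and 0.282% ± 0.0447 in ret/wt thalamus (SD, n = 4 each). The ret/ret libraries held 0.380% to 1.21% and the ret/wt libraries 0.242% to 0.336%, so they did not overlap on this scale either. The two-sided exact permutation test gave p = 0.0286 for Serpina3n in thalamus, the smallest that 4 against 4 libraries allow. Any 2 groups without overlap give that value, so it restates the separation already seen in CPM. It was 0.171 after Benjamini-Hochberg adjustment over the 6 such tests. Of the members, only Gfap, Serpina3n and Vim were tested in this way. Gfap relative to the sum was 4.59% ± 2.61 against 2.84% ± 1.53 in thalamus (SD, n = 4 each; exact permutation p = 0.286, adjusted 0.471) and 4.41% ± 3.52 against 1.90% ± 0.759 in cortex (exact permutation p = 0.114, adjusted 0.343). For Vim the exact permutation p was 0.514 in thalamus and 0.314 in cortex (adjusted 0.617 and 0.471), and for Serpina3n in cortex 0.886.

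Marker lists of other cell types were read in the same libraries. Of all genes tested, 47.1% in thalamus and 51.9% in cortex had a log2 fold change above 0. In thalamus all 10 microglia markers had a log2 fold change above 0 (median 0.58, summed level 301 to 359 CPM in ret/wt and 436 to 574 in ret/ret), and in cortex 9 of 10 did (median 0.11, 289 to 442 and 266 to 519 CPM). All 9 endothelial markers tested did so in thalamus (median 0.54, 206 to 245 CPM in ret/wt and 197 to 471 in ret/ret). In cortex, where the log2 fold change of Vim was 0.97, 7 of 9 did (median 0.67, 133 to 214 CPM in ret/wt and 181 to 398 in ret/ret). The ependymal markers lay above 0 in 6 of 6 in thalamus (median 0.73) and in 0 of 4 in cortex (median -0.17). The choroid plexus markers lay above 0 in 3 of 7 in thalamus (median -0.40) and in 0 of 5 in cortex (median -1.64). All 9 pericyte markers lay below 0 (median -0.98), and in cortex 6 of the 7 tested did (median -1.27). The 9 fibroblast markers had medians of -0.02 in thalamus and -0.04 in cortex. Neutrophil markers were close to absent, at 0.343 to 5.48 CPM summed over the 8 genes, with Ly6g and Camp at 0 in every ret/ret library. The part of these cells in the member values was not tested.

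**Figure D4:**
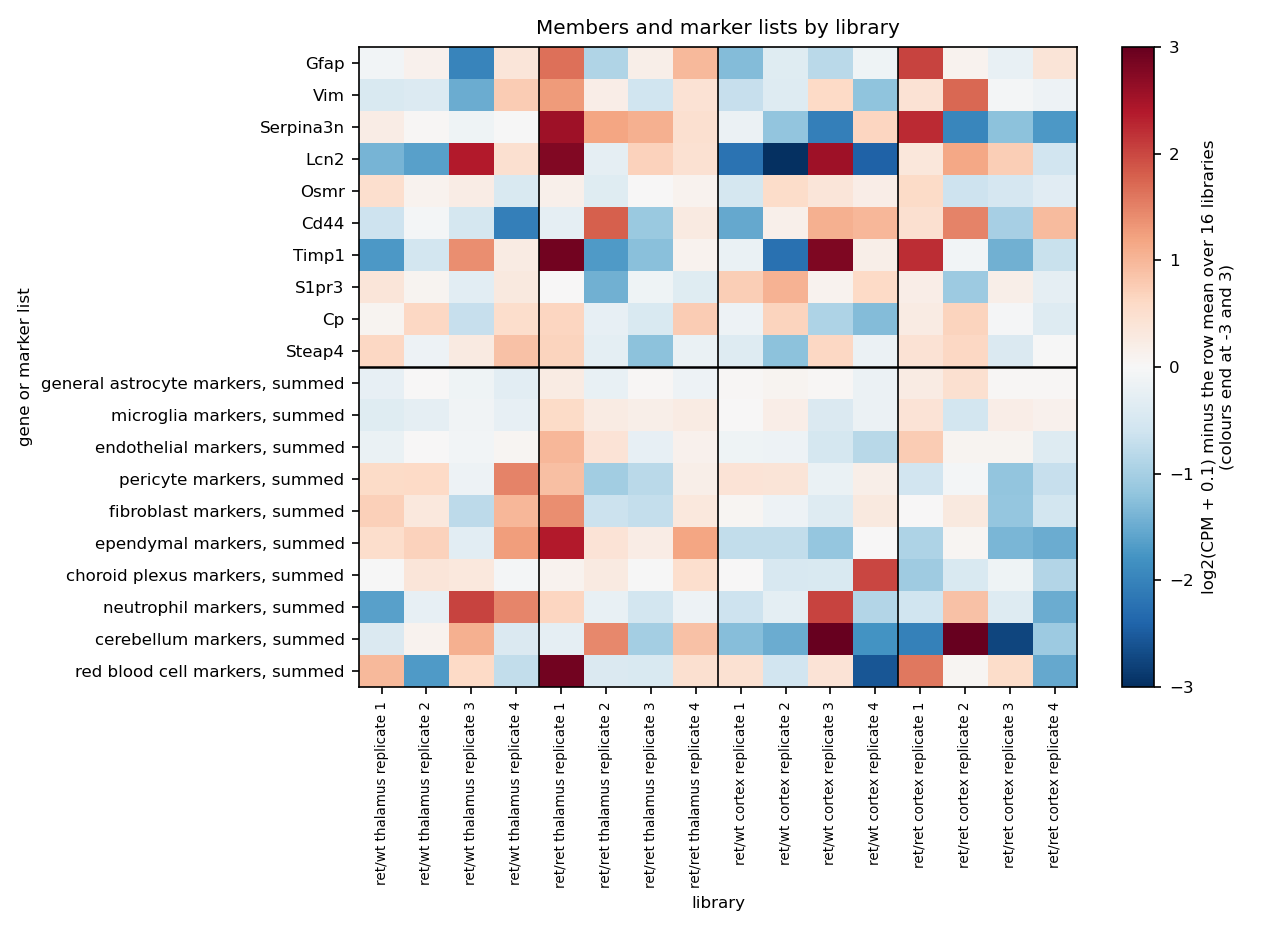
Log2(CPM + 0.1) minus the row mean over 16 libraries (colour), for the 10 members (above the line) and for the summed markers of 10 cell types or tissues (below it), by library. Lcn2 and Timp1 are high in both ret/wt cortex replicate 3 and ret/ret thalamus replicate 1, libraries that also stand out in cerebellum and neutrophil markers or in red blood cell and ependymal markers.

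The partners of the members were read from lists by role. Of all genes tested in thalamus, 1.86% were higher and 0.941% lower in ret/ret without overlap. In cortex these shares were 1.76% and 0.637%. The log2 fold change was above 0 in 47.1% of all genes in thalamus and 51.9% in cortex. Of other reactive astrocyte genes, the list known from the lipopolysaccharide response had 11 tested genes, of which 0 were called in either region. In cortex Gbp2, an interferon-induced GTPase, was at 10.6 ± 1.69 CPM in ret/ret and 3.65 ± 0.781 in ret/wt (SD, n = 4 each; log2 fold change 1.54 ± 0.26, edgeR adjusted p = 0.225). Iigp1, another interferon-induced GTPase, was at 5.02 ± 2.12 and 1.21 ± 0.358 CPM (log2 fold change 2.06 ± 0.40, adjusted p = 0.447), and Psmb8, an immunoproteasome subunit, at 4.67 ± 2.24 and 2.33 ± 0.286 CPM. These 3 were the genes without overlap in cortex among the 11 tested, all higher, beside 1.76% of all genes. In thalamus 8 of the 11 genes had a log2 fold change above 0 (median 0.45), and in cortex 9 (median 0.75). Iigp1 was at 1.43 ± 0.49 and Psmb8 at 1.17 ± 0.52 in thalamus (log2 fold change, SE; edgeR adjusted p = 1), with groups that overlapped. The only gene of the list without overlap in thalamus was Fkbp5, a glucocorticoid-induced chaperone partner, at 24.3 ± 4.13 CPM in ret/ret and 36.4 ± 9.09 in ret/wt, and it was the lower in ret/ret.

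The list known from ischaemia had 8 tested genes, of which 0 were called. B3gnt5, which makes lacto-series glycolipids, was at 5.30 ± 3.63 CPM in ret/ret thalamus and 0.258 ± 0.175 in the controls (SD, n = 4 each; log2 fold change 4.33 ± 0.77, edgeR adjusted p = 0.361) without overlap. Tm4sf1, a membrane protein of endothelial and astrocyte cells, was at 24.8 ± 6.10 CPM in ret/ret cortex and 11.4 ± 3.02 in ret/wt cortex (log2 fold change 1.13 ± 0.26, edgeR adjusted p = 0.563), without overlap. In thalamus its groups overlapped, at 31.2 ± 15.4 and 13.1 ± 6.83 CPM, with a log2 fold change of 1.26 ± 0.43. Among 3 other genes of the pan-reactive list, Cxcl10, a chemokine, was without overlap by animal, at 1.42 ± 1.49 CPM in ret/ret and 0.153 ± 0.0318 in ret/wt (edgeR adjusted p = 0.467). By animal 2.77% of all genes were higher in ret/ret without overlap. In ret/wt cortex no library held more than 3 counts of Cxcl10, and it was not tested for genotype within either region. The 5 filament partner and linker genes had a log2 fold change above 0 in 1 of 5 in both regions, with medians of -0.21 in thalamus and in cortex.

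Of the IL-6 family, its receptors and STAT3, 13 genes were tested in thalamus and 12 in cortex, with 0 called. Cntfr, the receptor for ciliary neurotrophic factor, was at 128 ± 13.3 CPM in ret/ret thalamus and 80.7 ± 20.2 in ret/wt thalamus (SD, n = 4 each), and Il6ra, the IL-6 receptor, at 6.36 ± 1.38 and 3.92 ± 0.704 CPM. Both were without overlap in thalamus (log2 fold change 0.68 ± 0.21 and 0.72 ± 0.28, edgeR adjusted p = 1). Stat3 itself was at 0.30 ± 0.21 in thalamus and -0.14 ± 0.21 in cortex. Socs3, an inhibitor that STAT3 induces, was at -0.32 ± 0.47 in thalamus and -0.35 ± 0.46 in cortex, on the log2 fold change scale. So neither gene differed by more than 2 SE in either region.

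Partners of S1pr3 in sphingosine-1-phosphate signalling were 9 genes, with 0 called for genotype. S1pr1, a receptor of astrocytes and endothelial cells, lay opposite to S1pr3, at 255 ± 73.9 CPM in ret/ret thalamus and 152 ± 23.1 in ret/wt thalamus without overlap (SD, n = 4 each; log2 fold change 0.77 ± 0.23, edgeR adjusted p = 1). S1pr5, an oligodendrocyte receptor, was called between regions, higher in thalamus by 1.42 ± 0.26 in ret/ret and 1.45 ± 0.35 in ret/wt (log2, edgeR adjusted p = 0.0116 and 0.0218). Iron and copper partners of Cp, Lcn2 and Steap4 gave 13 tested genes, with 0 called for genotype. Heph, a ferroxidase related to Cp, was without overlap in both regions: 53.1 ± 11.7 CPM in ret/ret and 33.6 ± 2.15 in ret/wt thalamus, and 16.6 ± 3.35 and 10.2 ± 1.11 CPM in cortex (SD, n = 4 each; log2 fold change 0.68 ± 0.19 and 0.70 ± 0.20, edgeR adjusted p = 1 and 0.935). Hmox1, heme oxygenase, was without overlap in cortex, at 6.63 ± 1.395 CPM in ret/ret and 4.05 ± 0.570 in ret/wt (log2 fold change 0.72 ± 0.26). In thalamus its groups overlapped, at 19.6 ± 12.8 and 5.92 ± 3.32 CPM, with a larger log2 fold change of 1.74 ± 0.50. Between regions 3 of these 13 genes were called in ret/ret, Heph, Fth1 and Hmox1, and 2 in ret/wt, Heph and Trf, all higher in thalamus. Over all genes the shares called between regions were 9.5% in ret/ret and 12.6% in ret/wt.

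Of the hyaluronan genes around Cd44, 9 were tested and 0 called for genotype. Between regions Spp1, osteopontin and a ligand of CD44, was higher in thalamus by 4.20 ± 0.84 in ret/ret and 2.15 ± 0.21 in ret/wt (log2, edgeR adjusted p = 0.0165 and 0.000264). Cemip, which cuts hyaluronan, was lower in thalamus by -2.08 ± 0.34 in ret/ret and -1.70 ± 0.33 in ret/wt (adjusted p = 0.00707 and 0.00808). Of 11 metalloproteinase and inhibitor genes around Timp1, 0 were called for genotype. Mmp14, a membrane-bound metalloproteinase, was without overlap in cortex, at 7.47 ± 2.03 CPM in ret/ret and 12.3 ± 0.998 in ret/wt (edgeR adjusted p = 0.999). Mmp17 was lower in thalamus by -2.29 ± 0.36 in ret/ret and -2.52 ± 0.28 in ret/wt, and Mmp15 higher by 1.56 ± 0.23 and 1.59 ± 0.28 (log2, each called by edgeR). Mmp16 was called in ret/ret, lower in thalamus by -1.14 ± 0.29. In ret/wt Timp3, a matrix-bound inhibitor of metalloproteinases, and Adamts4, which cuts proteoglycans, were higher in thalamus by 0.90 ± 0.17 and 1.43 ± 0.34 (edgeR adjusted p = 0.00701 and 0.0202). Ezr, which links CD44 to the actin skeleton, was lower in ret/wt thalamus by -1.65 ± 0.21 (adjusted p = 0.000841). Also called between regions were Ptgs2, a prostaglandin synthase, lower in thalamus by -2.33 ± 0.49 in ret/ret and -2.502 ± 0.432 in ret/wt, and Cntfr, higher in ret/ret thalamus by 0.80 ± 0.19 (log2; edgeR adjusted p = 0.0207, 0.00426 and 0.0304). In ret/wt the complement gene C3, the matrix gene Fbln5 and the cluster gene Serpina3g were also higher in thalamus, by 3.16 ± 0.75, 1.18 ± 0.34 and 2.72 ± 0.78 (adjusted p = 0.0207, 0.0457 and 0.045). Partners with a region difference were named here because they were called, so they are no comparison for the members. Between regions 0 of 8 members were called in ret/ret and 0 of 7 in ret/wt. Over all genes it was 9.5% and 12.6%, and 0 is near these shares for so few genes.

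Across the 16 libraries, the likeness of log2 CPM between genes was measured by Pearson's r, as a description over libraries that share animals and regions. The closest member was Vim for Gfap (r = 0.55), Cp for Vim (0.58), Gfap for Serpina3n (0.49), Timp1 for Lcn2 (0.65) and S1pr3 for Osmr (0.43). S1pr3 and Cd44 ran against each other (r = -0.52), as did S1pr3 and Lcn2 (-0.50). Among 13979 genes, those closest to Gfap were Hacd4 (r = 0.86), Klhdc8b (0.85) and Usp18 (0.84). Those closest to Serpina3n were Wbp1 (0.89), Lat2 (0.87) and Fads2 (0.85), and those closest to Osmr were Stard13 (0.82), Tox3 (0.74) and Ankfn1 (0.73). They were picked as the highest among 13979 genes, and the r that chance gives such a pick was not measured. Gfap and Serpina3n were both highest in ret/ret replicate 1 in each region, and its weight in these r was not tested.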

How the data were processed

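PolyA-selected, stranded libraries were made from cortex and thalamus of 8 mice, per the labels' protocols. The deposited table holds expected counts per Ensembl gene, which the authors made with kallisto 0.44.0 on GRCm38.p6, per the submitters' processing notes; the step from transcripts to genes is not given in the sources used here. Of the nonzero values 99.96% were not whole (tolerance 1e-06), so they were rounded. GENCODE M21 gave symbols for 21581 genes (99.0%).

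Counts were tested in R 4.3.3 with edgeR 4.0.16 (TMM, filterByExpr with a minimum count of 10, quasi-likelihood test at its defaults). Each comparison used its own 8 libraries or 8 animal sums, the interaction all 16, with Benjamini-Hochberg adjustment over all genes tested. CPM were scaled over all 16 libraries by TMM, and animal sums over the 8 sums. Scripts were tested on simulated data. Plots and the exact permutation tests used Python 3.11.15, scipy 1.17.1 and matplotlib 3.10.9. Alternatives were DESeq2 1.42.0, limma-voom (limma 3.58.1), other scalings and filters, a robust fit, an all-library fit, a replicate block, leaving out each library, and leaving out the 2 animals with Ddx3y reads.

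The members, lists and tests were chosen with earlier results of these data known. All members are named. From each other list at most 4 genes per comparison are named, called genes first, then the smallest p among those without overlap; Stat3, Socs3 and Serpina3g were added after their values were seen. Correlations used genes with a mean of at least 1 CPM.

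The labels give the cortex and thalamus library of an animal the same letter, which pairs the regions. The deviations of these pairs correlated at -0.03 to 0.26 in ret/ret and -0.06 to 0.17 in ret/wt. Equal numbers across genotypes are different animals. Printed SE and SD include the spread between animals; the floor of 3 counts covers counting error only.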

Additional observations from a re-analysis of the deposited data

Results flagged for a closer look

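In each of the 40 sets of 4 libraries (10 members in 4 groups) the highest and lowest library were set against the other 3. In 8 sets the gap of the highest library to the next was more than 0.829 of the whole range, a limit that about 1 set in 20 passes by chance, at either end, if values are normal and sets independent. CPM is skewed and sets share animals, so the chance rate here was not measured. Ret/ret replicate 1 accounted for 6 of them. In cortex it held Gfap at 926 CPM against 196 to 299 in the other ret/ret cortex libraries, Serpina3n at 94.6 CPM against 5.05 to 8.48, Osmr at 5.93 CPM against 2.55 to 3.11, and Timp1 at 2.10 CPM against 0.0731 to 0.345. In thalamus it held Lcn2 at 5.50 CPM against 0.583 to 1.22, and Timp1 at 3.42 CPM against 0.0449 to 0.410. The other 2 sets were led by ret/wt cortex replicate 3, with Lcn2 at 4.66 CPM against 0 to 0.0782 in the other ret/wt cortex libraries and Timp1 at 3.21 CPM against 0 to 0.430.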

How the results depend on the processing

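No member was called in any alternative of the 6 comparisons, except that Serpina3n was called between regions in ret/ret without ret/ret cortex replicate 1 (0 to 1 members called over the leave-one-out fits). Over all genes DESeq2 called 38 genes in thalamus (edgeR 0), 39 in cortex (3), 80 by animal (2), 2591 between regions in ret/ret (1398) and 4 in the interaction (0). For genotype, Gfap, Vim and S1pr3 kept their direction in every alternative of all 3 comparisons, and Serpina3n in thalamus and by animal. Direction turned, on the log2 fold change scale, in the following. With limma-voom the values were -0.081 for Serpina3n and 2.28 for Lcn2 in cortex, -0.22 for Timp1 by animal, -0.011 for Vim between regions in ret/wt and -0.94 for Lcn2 in the interaction. The replicate block pairs different animals in the genotype fits, while in the region fits and the interaction it is the animal itself. With it Lcn2 was at 1.996 in cortex and -1.09 in the interaction, and Timp1 at -0.023 by animal. The block called 0 genes for genotype and 1177 and 1487 between regions. Without the 2 animals with Ddx3y reads Osmr was at 0.0096 in thalamus, Vim at 0.47 between regions in ret/ret, and Lcn2 at -1.68 in the interaction. Upper-quartile scaling gave Gfap 0.0081 between regions in ret/ret and Osmr 0.017 in ret/wt, where library size alone gave 0.020. The leave-one-out fits spanned 0 in these cases. For genotype in thalamus they gave Lcn2 -0.55 to 2.16, Osmr -0.27 to 0.012, Cp -0.14 to 0.26. In cortex they gave Serpina3n -1.27 to 1.47, Lcn2 -0.58 to 4.45, Cd44 -0.14 to 0.58. By animal they gave Lcn2 -0.29 to 2.78, Cd44 -0.080 to 0.87, Timp1 -1.96 to 1.91. For region in ret/ret they gave Gfap -0.62 to 0.65, Vim -0.65 to 0.40, Lcn2 -0.26 to 1.23, Cd44 -1.01 to 0.25, S1pr3 -0.44 to 0.017, Cp -0.13 to 0.31. For region in ret/wt they gave Vim -0.47 to 0.55, Osmr -0.26 to 0.068. For the interaction they gave Gfap -1.01 to 0.22, Vim -0.78 to 0.32, Lcn2 -3.88 to 2.33, Timp1 -0.66 to 3.41. The cause was not tested. Depth limits Timp1, Steap4 and, in ret/wt cortex, Lcn2, whose libraries lie near the floor of 3 counts. Leaving out the ret/ret replicate 1 library of a region moves the log2 fold changes of Gfap and Serpina3n for genotype. Gfap goes from 0.94 to 0.44 in thalamus and from 1.46 to 0.69 in cortex. Serpina3n goes from 1.53 to 0.93 in thalamus and from 0.87 to -1.27 in cortex.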
